A study of Homo sapiens with 4 samples.

Results

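The genes described here are the 5 subunits of the transcription factor NF-kB (NFKB1, NFKB2, RELA, RELB and REL) and 5 of its inhibitors (NFKBIA, NFKBIB, NFKBIE, TNFAIP3 and BCL3). They were chosen by symbol, with earlier results of these data known. All 10 were found among the 20263 genes of the count table and had enough counts to be tested. Their mRNA was measured by RNA sequencing in the human colon cancer line HCT116, an established cell line, in 2 libraries of cells given the compound N_12 and 2 libraries of cells given DMSO, the solvent control. N_12 is a code name for a compound that the series title calls a derivative of the kinase inhibitor nilotinib; the treatment tag of its libraries reads HJJ_3_5 instead, and no dose is given in the labels. Cells of both groups were kept for 24 h in MC5A medium with fetal bovine serum and antibiotics. The labels do not say whether the replicates came from separate cultures, so p-values measure only the spread between these libraries, which may be technical.

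NF-kB is a family of dimers that share a DNA-binding Rel homology region. In resting cells most dimers are held in the cytoplasm by IkB proteins. Signals from TNF, interleukin-1 and Toll-like receptors activate the IkB kinase complex, which marks IkB for ubiquitination and destruction and frees the dimers, whereas receptors such as the lymphotoxin beta receptor act through the kinase MAP3K14 to cut the NFKB2 precursor into its active form. Several subunit and inhibitor genes are themselves targets of NF-kB, which closes feedback loops, and in colon epithelium the pathway links inflammation to survival of tumour cells.

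Stretches of promoters are shown because genes of this family are known to be NF-kB targets themselves, and the motif that NF-kB dimers bind can be looked for there. RefSeq windows of 300 bases on GRCh38.p14, from 250 bases before to 50 bases after each annotated start, were matched by symbol for 8 of the 10 genes, in 13 windows because some genes have several starts; RELB and NFKBIE had no entry. The kappaB consensus of 10 bases was searched on both strands, and 7 of these 8 genes held at least 1 match in at least 1 window, against 3619 of all 27305 genes with a window (13.3%). By window the share was 61.5% for the 13 windows of these genes and 11.3% for all 35116 windows. Of the target genes listed further on, 14 of 24 with a window held a match. Each stretch of 120 bases below runs from 130 to 11 bases before the start, on the strand of the gene, and capitals mark the matches, which overlap each other in NFKB2. The stretches lie at chr4:102501229-102501348 (plus strand) for NFKB1, chr14:35404760-35404879 (minus strand) for NFKBIA, chr10:102394448-102394567 (plus strand) for the second of 3 NFKB2 windows and chr6:137867129-137867248 (plus strand) for TNFAIP3.
NFKB1: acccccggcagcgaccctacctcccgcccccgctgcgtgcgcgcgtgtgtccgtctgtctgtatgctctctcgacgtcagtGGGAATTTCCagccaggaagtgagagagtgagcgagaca
NFKBIA: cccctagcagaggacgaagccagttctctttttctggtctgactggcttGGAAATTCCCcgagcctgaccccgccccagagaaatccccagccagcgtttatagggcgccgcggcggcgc
NFKB2: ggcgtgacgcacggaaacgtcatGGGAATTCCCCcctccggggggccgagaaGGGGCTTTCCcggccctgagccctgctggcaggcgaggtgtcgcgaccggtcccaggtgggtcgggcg
TNFAIP3: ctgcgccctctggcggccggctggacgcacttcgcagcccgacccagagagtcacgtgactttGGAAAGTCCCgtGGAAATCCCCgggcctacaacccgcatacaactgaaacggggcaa
The match in NFKB1 begins 49 bases before the start and reads GGGAATTTCC, and the match in NFKBIA begins 81 bases before the start and reads GGGAATTTCC on the other strand, so these genes share the same 10 letters in opposite orientations. NFKB2 holds GGGAATTCCC, which reads the same on both strands, with a further match shifted by a base, and GGGGCTTTCC at 78 bases before the start. TNFAIP3 holds matches 67 and 55 bases before the start. REL and NFKBIB held the letters GGGAATTTCC as well, on the other strand in REL, and BCL3 held a match just after its start, while the 2 windows of RELA held none. A match describes these letters only, and binding was not measured.

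None of the 10 genes was called at an adjusted p of 0.05 over all 14105 tested genes by edgeR's quasi-likelihood test. Their estimates lay on both sides of 0, and the 95% intervals included 0 except for NFKB1 and NFKBIA. The subunit gene NFKB1 and the inhibitor gene NFKBIA had the highest log2 fold changes, 0.72 and 0.63, while NFKB2, the most abundant of the 10 per length, had the lowest, -0.28. RELA, the main activating subunit, had nearly the same level in both groups. At an unadjusted p under 0.05 the test passed 2 of the 10 genes, NFKB1 and NFKBIA, both higher in N_12, beside 21.8% of all tested genes in either direction and 11% as higher. DESeq2 called 1 of the 10 (NFKB1) and limma-voom 0. Background shares of called genes in the whole table were 2.25% by edgeR, 9.83% by DESeq2 and 0.929% by limma-voom. The median log2 fold change was 0.08 over the 10 genes, with 6 above 0 and 4 below, and 0.0091 over all tested genes, of which 51% lay above 0. In 3 of the 10 genes the N_12 libraries lay wholly above the DMSO libraries (27.9% of all tested genes) and in 2 wholly below (26.8%), in all 5 of 10, beside 54.7% of all tested genes. Total counts were 41717938 and 39865327 in the N_12 libraries and 31120459 and 29769568 in the DMSO libraries, and each of the 10 genes had at least 467 counts in every library. In bulk RNA, fewer cells of a type and less RNA per cell cannot be told apart.

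The cell line's label was checked against marker genes. Of 10 colon epithelial markers EPCAM, CDH1, KRT8, KRT18, KRT19 and CDX2 were well expressed, CDX1 had no count in any library and VIL1, CDH17 and LGALS4 had at most 10 counts in each. The summed level of the list was 3351 and 3694 CPM (counts scaled to library size) in N_12 and 4608 and 4075 CPM in DMSO. This sum moved with the groups, and its part in the results was not tested. Most of it was KRT8 and KRT19, and the markers differed in direction. Log2 fold changes were -0.36 for KRT8, -0.32 for KRT19, -0.42 for EPCAM, -0.52 for CDH1, 0.01 for KRT18 and 0.62 for CDX2. None of these markers was called by edgeR. Of 8 leukocyte markers PTPRC, CD3E and MS4A1 were at 0 in every library, and the sum was 50.9 and 44.3 CPM in N_12 against 43.7 and 36.1 CPM in DMSO, nearly all of it CD68. Of 8 fibroblast and endothelial markers COL1A2 and DCN were at 0, and the sum was 56.2 and 62.0 CPM in N_12 against 66.1 and 62.0 CPM in DMSO, nearly all of it COL1A1.

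**Figure D1:**
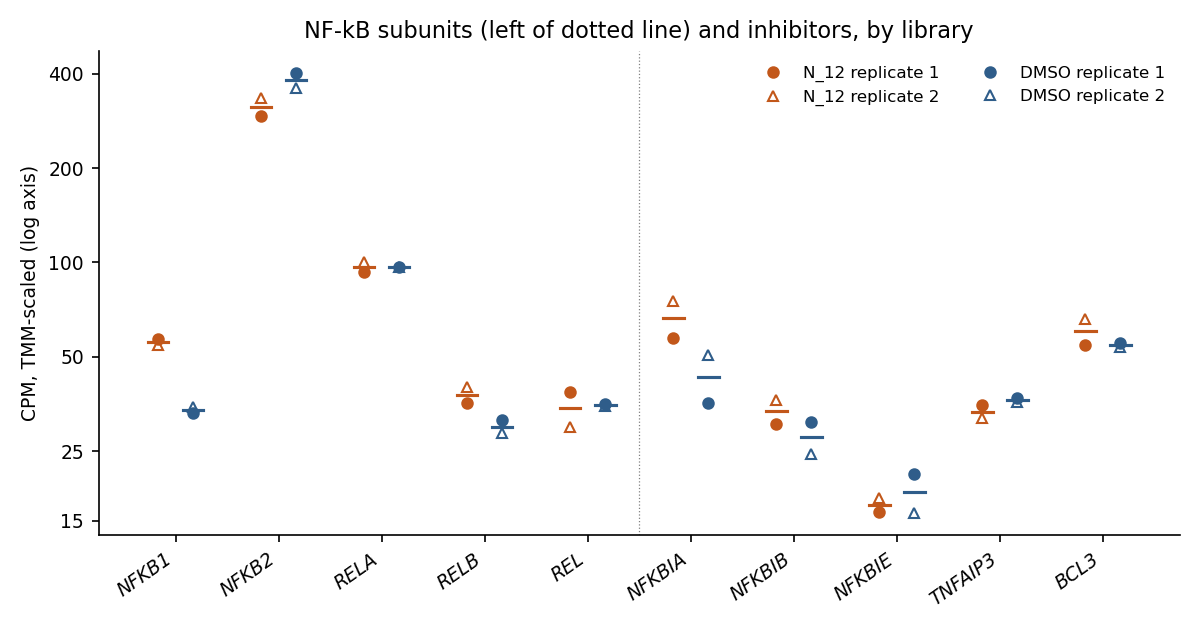
Level of each of the 10 genes in every library, in CPM on a log axis; filled circles are replicate 1, open triangles replicate 2 and bars the group means. The N_12 and DMSO points stand clearly apart for NFKB1, at 57.1 and 54.6 against 33.2 and 34.7 CPM. For RELA the DMSO points lie between the N_12 points.

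NFKB1 (ENSG00000109320) encodes the precursor of the p50 subunit, which binds DNA but lacks an activation domain of its own. It stood at 57.1 and 54.6 CPM in N_12, against 33.2 and 34.7 CPM in DMSO. The groups did not overlap, and the gap between them was far wider than that between replicates. The means were 55.8 ± 1.76 CPM in N_12 and 33.9 ± 1.09 CPM in DMSO (SD, n = 2 each), a 1.65-fold difference (log2 fold change 0.72, SE 0.15, 95% interval 0.38 to 1.06). The quasi-likelihood test of edgeR gave an adjusted p (Benjamini-Hochberg) of 0.0535, just above the threshold, and the gene ranked 356 by p among all tested genes. The call depended on the processing. NFKB1 passed with library totals alone (adjusted p = 0.0460), with no filter on low counts (0.0466), with a filter on a mean count of 50 (0.0482) and with DESeq2 (0.000493). It did not pass with limma-voom (adjusted p = 0.0750), without robust dispersion estimates (0.0804) or when any library was left out (0.112 to 0.235). Over 11 such settings its log2 fold change stayed between 0.67 and 0.77.

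NFKB2 (ENSG00000077150) encodes the precursor of the p52 subunit of the lymphotoxin-type branch. It stood at 294 and 335 CPM in N_12, against 403 and 359 CPM in DMSO. The N_12 libraries lay wholly below the DMSO libraries, but the gap between the groups was smaller than the spread within either. The log2 fold change was -0.28 (SE 0.14, 95% interval -0.59 to 0.04, adjusted p = 0.281 by edgeR). NFKB1 and NFKB2, the precursor genes of the family, thus had estimates on opposite sides of 0. Their ratio of counts within a library, into which no library scaling enters, was 0.194 and 0.163 in N_12, against 0.0823 and 0.0966 in DMSO. The mean log2 difference of this ratio was 0.998 (exact two-sided permutation test, p = 0.333, the smallest that 2 against 2 libraries allow). This pair of genes was chosen after their values were seen.

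RELA (ENSG00000173039) encodes the p65 subunit, which carries a strong activation domain. It stood at 93.1 and 100.4 CPM in N_12, against 96.4 and 96.5 CPM in DMSO. The groups overlapped and the log2 fold change was 0.0047, with a 95% interval of -0.30 to 0.31, so changes of up to about that size in either direction were not excluded by these libraries. Its adjusted p was 0.989 (edgeR), and the sign of its estimate turned with another scaling. RELB (ENSG00000104856), the usual partner of p52, stood at 35.5 and 40.0 CPM in N_12, against 31.4 and 28.5 CPM in DMSO. These groups did not overlap, and the log2 fold change of 0.33 (SE 0.16, 95% interval -0.03 to 0.70, adjusted p = 0.270 by edgeR) did not pass. REL (ENSG00000162924), the subunit best known from lymphocytes, stood at 38.6 and 29.9 CPM in N_12, against 35.4 and 34.9 CPM in DMSO. Here the N_12 libraries lay on either side of the DMSO libraries (log2 fold change -0.04, 95% interval -0.44 to 0.37, adjusted p = 0.927 by edgeR). Of REL's exon bases 43.3% are also exons of another gene on the same strand in GENCODE 29 (AC010733.2), and how such reads were assigned was not examined.

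NFKBIA (ENSG00000100906) encodes IkB alpha, the inhibitor that NF-kB induces most directly and that ends its activity. It stood at 57.6 and 75.5 CPM in N_12, against 35.6 and 50.5 CPM in DMSO. All of the N_12 values were higher, but replicates of each group differed widely, with means of 66.6 ± 12.6 CPM in N_12 and 43.1 ± 10.5 CPM in DMSO (SD, n = 2 each). The 1.55-fold difference (log2 fold change 0.63, SE 0.22, 95% interval 0.12 to 1.14) had an adjusted p of 0.161 by edgeR. The estimate was 0.40 without DMSO replicate 1, 0.90 without DMSO replicate 2, 0.79 without N_12 replicate 1 and 0.41 without N_12 replicate 2. None of the 11 settings called it, the lowest adjusted p being 0.0723.

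**Figure D2:**
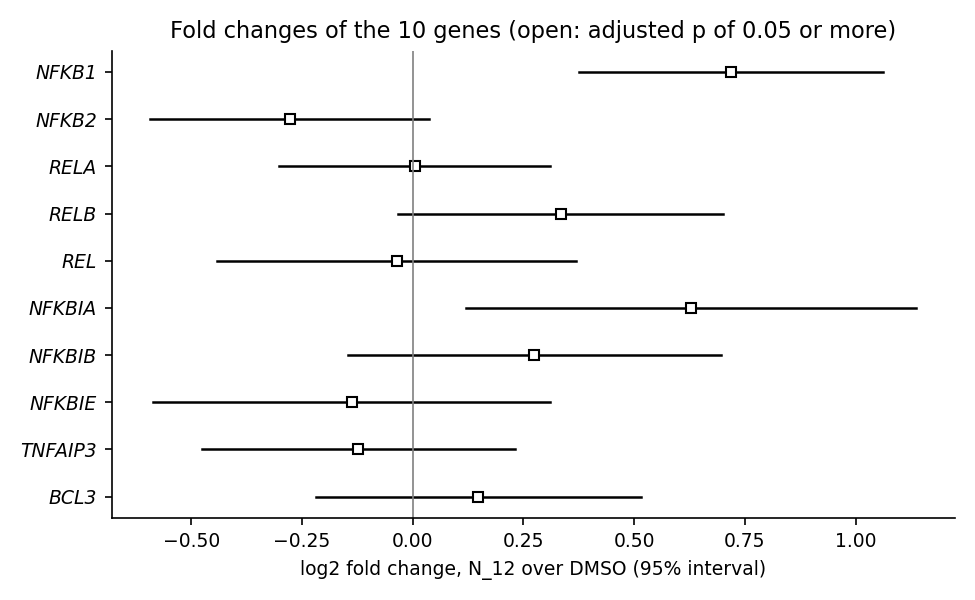
Log2 fold change of each gene, N_12 over DMSO, from edgeR's quasi-likelihood model, with its 95% interval; open squares have an adjusted p of 0.05 or more. Only the intervals of NFKB1 (0.38 to 1.06) and NFKBIA (0.12 to 1.14) lie wholly above 0 among the 10.

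The other classical IkB genes gave smaller estimates. NFKBIB (ENSG00000104825), which encodes IkB beta, stood at 30.6 and 36.5 CPM in N_12, against 30.9 and 24.6 CPM in DMSO. NFKBIE (ENSG00000146232), which encodes IkB epsilon, stood at 16.0 and 17.7 CPM in N_12, against 21.2 and 15.9 CPM in DMSO. The groups overlapped for both genes, with log2 fold changes of 0.27 (95% interval -0.15 to 0.70) for NFKBIB and -0.14 (95% interval -0.59 to 0.31) for NFKBIE, and adjusted p-values of 0.415 and 0.720 by edgeR. SIRT2, a gene on the other strand, covers 1.7% of the exon bases of NFKBIB.

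TNFAIP3 (ENSG00000118503) encodes an enzyme that edits ubiquitin chains and shuts off signalling above the IkB kinases, and is itself a target of NF-kB. It stood at 35.1 and 31.8 CPM in N_12, against 36.9 and 36.0 CPM in DMSO. Its estimate lay on the other side of 0 from that of NFKBIA, although both are feedback inhibitors (log2 fold change -0.12, 95% interval -0.48 to 0.23, adjusted p = 0.680 by edgeR), and the difference between them was not tested. BCL3 (ENSG00000069399) encodes a nuclear IkB protein that binds p50 and p52 dimers and can turn them into activators. It stood at 54.5 and 66.3 CPM in N_12, against 55.2 and 53.8 CPM in DMSO, so N_12 replicate 1 lay between the DMSO libraries (log2 fold change 0.15, 95% interval -0.22 to 0.52, adjusted p = 0.627 by edgeR).

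Set against the promoter sequences, the 7 genes with a kappaB match had log2 fold changes from -0.28 for NFKB2 to 0.72 for NFKB1, and RELA, whose windows held none, lay between them at 0.0047. Estimates of the 4 genes with the letters GGGAATTTCC were -0.04 for REL, 0.27 for NFKBIB, 0.63 for NFKBIA and 0.72 for NFKB1. The letters were named from the matches of NFKB1 and NFKBIA, which had the highest estimates, so the group holds both by construction. None of the 4 was called and they were not tested against each other. Genes with more than 1 match lay on both sides of 0, NFKB2, TNFAIP3 and REL below it and NFKBIB above it. This is a description of 8 genes.

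Levels were compared between genes only per length, as RPKM computed from the counts and the exon lengths of GENCODE 29. NFKB2 was highest in both groups, at 70.1 ± 6.49 RPKM in N_12 and 85.0 ± 6.84 RPKM in DMSO (SD, n = 2 each), and REL was lowest, at 2.60 ± 0.467 RPKM in N_12 and 2.67 RPKM in DMSO. These ends of the order held when the longest coding transcript was used as the length. With the GENCODE 29 exon lengths NFKB2 made up 62.7% of the summed RPKM of the 5 subunits in N_12 and 70.5% in DMSO. RELA made up 15.9% and 14.6%, and NFKB1 7.99% and 4.50%. Such shares depend on the length used. Of the inhibitors NFKBIA was highest, at 28.1 ± 5.33 RPKM in N_12 and 18.2 ± 4.44 RPKM in DMSO. In N_12 the order from the top was NFKB2, NFKBIA, BCL3, RELA, NFKBIB, RELB, NFKB1, TNFAIP3, NFKBIE and REL. The ranges of the neighbours BCL3 and RELA, NFKBIB and RELB, and TNFAIP3 and NFKBIE overlapped there. In DMSO the order was NFKB2, NFKBIA, RELA, BCL3, NFKBIB, RELB, TNFAIP3, NFKBIE, NFKB1 and REL. The ranges of the neighbours NFKBIA and RELA, and TNFAIP3 and NFKBIE, overlapped in DMSO. The range of NFKBIA also held that of BCL3. Order in the middle depended on the length used: with the longest coding transcript RELA (30.3 RPKM) stood above NFKBIA (27.6 RPKM) in DMSO, and NFKB1 there stood at 8.31 RPKM, above NFKBIE at 7.18 RPKM.

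Ratios to RELA were taken within each library, so that no library scaling enters. NFKB1 had 0.613 and 0.544 counts per count of RELA in N_12, against 0.344 and 0.360 in DMSO. For NFKBIA the ratio was 0.619 and 0.752 in N_12, against 0.370 and 0.523 in DMSO. NFKB2 had 3.15 and 3.33 counts per count of RELA in N_12, against 4.18 and 3.72 in DMSO. Of the 9 ratios the N_12 libraries lay wholly above the DMSO libraries for NFKB1, RELB, NFKBIA, NFKBIB and BCL3 and wholly below for NFKB2, and overlapped for REL, NFKBIE and TNFAIP3. The same ratio to RELA lay wholly above in 26.8% of all other tested genes and wholly below in 26.4%, in all 53.2%, so such separation was common across the table. The 9 share RELA as denominator, and each had an exact permutation p of at least 0.333, unadjusted, the smallest possible.

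**Figure D3:**
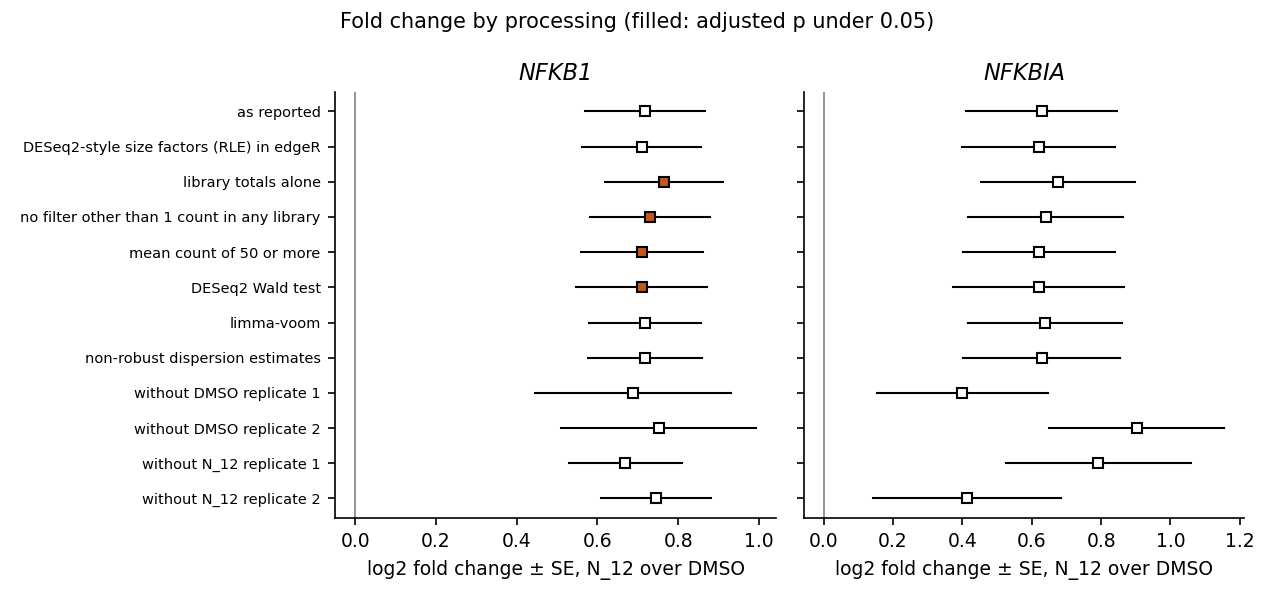
Log2 fold change ± SE of NFKB1 and NFKBIA, N_12 over DMSO, under each way of processing; filled squares have an adjusted p under 0.05. NFKB1 stays between 0.67 and 0.77 whichever library is left out, while NFKBIA ranges from 0.40 to 0.90.

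Around these 10 genes, 7 lists of pathway genes were described, with 93 tested genes in all. Of these 5 were called, 2 higher and 3 lower in N_12, beside 0.822% of all tested genes called higher and 1.43% called lower. Among all tested genes 21.8% had an unadjusted p under 0.05 by edgeR, and 51% lay above 0. The receptor genes LTBR and TNFRSF1A rose, and the ligand gene EDA, the adaptor gene MYD88 and the target gene GADD45B fell. Without N_12 replicate 1, or without N_12 replicate 2, edgeR called none of the 5 and no gene in the whole table, where the unadjusted p was under 0.05 for 2855 and 2763 genes.

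Of 15 tested receptors 2 were called higher and 0 lower (median log2 fold change 0.30). Above 0 lay 11 (73.3%, beside 51% of all tested genes). An unadjusted p under 0.05 by edgeR, in either direction, was found for 5 (33.3%, beside 21.8%). LTBR (ENSG00000111321), the lymphotoxin beta receptor that feeds the NFKB2 branch, stood at 119.5 and 135 CPM in N_12, against 51.1 and 52.2 CPM in DMSO. It rose 2.47-fold (log2 fold change 1.30, SE 0.14, adjusted p = 0.00639 by edgeR), with adjusted p-values of 0.0955 without N_12 replicate 1 and 0.119 without N_12 replicate 2, and 6.7% of its exon bases lie opposite exons of SCNN1A. TNFRSF1A (ENSG00000067182), the main receptor for TNF, stood at 221 and 207 CPM in N_12, against 139 and 129 CPM in DMSO. It rose 1.60-fold (log2 fold change 0.68, SE 0.13, adjusted p = 0.0444 by edgeR), a call that ended without any of the 4 libraries (adjusted p from 0.111 to 0.151), with limma-voom (0.0726) and without robust dispersion estimates (0.0768). TNFRSF12A, the receptor for the ligand TWEAK, differed by 0.40 on the log2 scale (SE 0.15, edgeR adjusted p = 0.179).

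Of 14 ligands 6 were tested and 1 was called, as lower (median log2 fold change -0.03). Above 0 lay 3 (50%, beside 51% of all tested genes). An unadjusted p under 0.05 by edgeR was found for 1 (16.7%, beside 21.8%). EDA (ENSG00000158813), the ectodysplasin ligand of the TNF family, stood at 4.65 and 5.52 CPM in N_12, against 23.7 and 31.0 CPM in DMSO. It fell 5.37-fold (log2 fold change -2.43, SE 0.21, adjusted p = 0.00251 by edgeR; 0.124 without either N_12 library). Its receptors EDAR and EDA2R had at most 4 counts in any library. TNF itself had 3 and 0 counts in N_12 and 2 and 2 in DMSO, too few to test; these 3 genes were named after their values were seen. LTA, the lymphotoxin alpha gene, and IL1A, the interleukin-1 alpha gene, were below 1 CPM in every library, with log2 fold changes of 0.85 (adjusted p = 0.455) and 0.51 (adjusted p = 0.495) by edgeR. The estimate of LTA rested on few counts, and was 0.23 without DMSO replicate 1, 1.94 without DMSO replicate 2, 0.52 without N_12 replicate 1 and 1.09 without N_12 replicate 2.

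Of 17 tested adaptors and ubiquitin ligases 1 was called, as lower (median log2 fold change 0.29). Above 0 lay 12 (70.6%, beside 51% of all tested genes). An unadjusted p under 0.05 by edgeR, in either direction, was found for 8 (47.1%, beside 21.8%). MYD88 (ENSG00000172936), the adaptor of Toll-like and interleukin-1 receptors, stood at 7.10 and 10.5 CPM in N_12, against 21.0 and 20.5 CPM in DMSO. It fell 2.35-fold (log2 fold change -1.23, SE 0.22, adjusted p = 0.0366 by edgeR), with adjusted p-values of 0.139 without N_12 replicate 1, 0.128 without N_12 replicate 2, 0.0632 with limma-voom and 0.0691 without robust dispersion estimates. RBCK1, a subunit of the ligase that builds linear ubiquitin chains, stood at 149 and 162 CPM in N_12, against 107 and 99.4 CPM in DMSO. RIPK1, a kinase of the TNF receptor complex, stood at 57.0 and 51.2 CPM in N_12, against 31.7 and 36.5 CPM in DMSO. Neither RBCK1 (log2 fold change 0.59, adjusted p = 0.0640) nor RIPK1 (0.66, adjusted p = 0.0758) was called by edgeR, and both were by DESeq2 (adjusted p = 0.00365 and 0.00632).

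**Figure D4:**
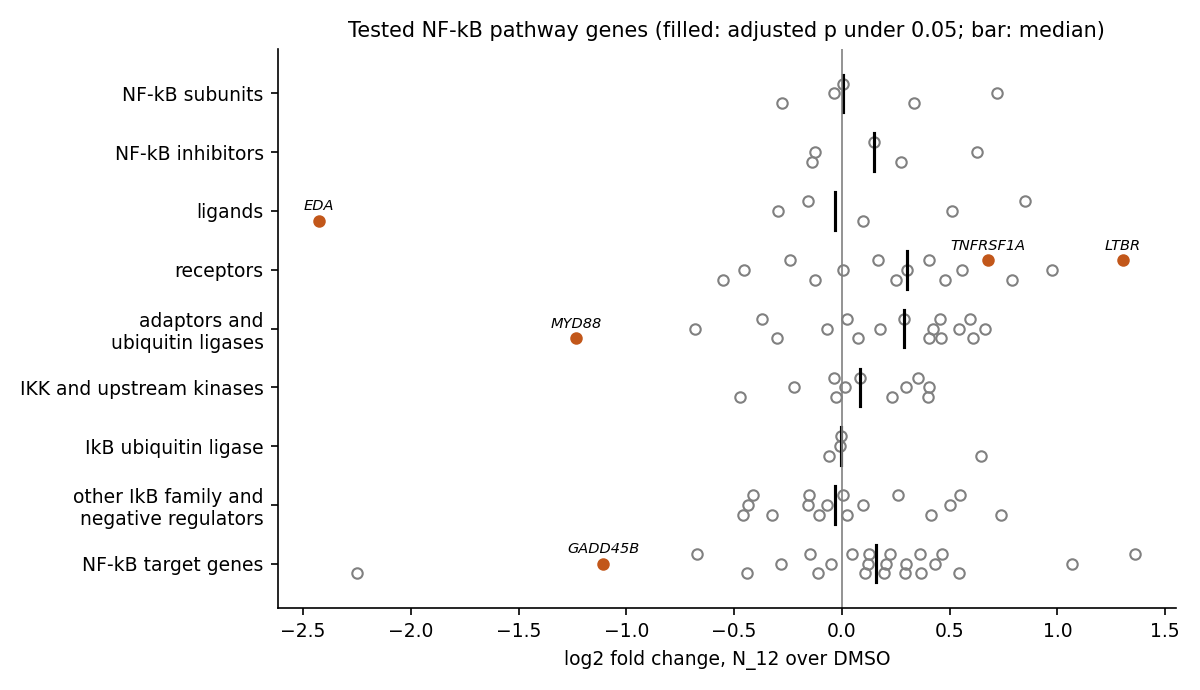
Log2 fold change, N_12 over DMSO, of each tested gene of the NF-kB subunits, inhibitors and 7 pathway lists; filled points have an adjusted p under 0.05 and bars are list medians. LTBR and TNFRSF1A stand on the higher side, EDA, MYD88 and GADD45B on the lower side, and no subunit or inhibitor is filled.

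Kinases and the machinery that destroys IkB gave no call by edgeR. Among 11 tested kinases of the IKK complex and above it 0 were called by edgeR, DESeq2 or limma-voom (median log2 fold change 0.09). Above 0 lay 7 (63.6%, beside 51% of all tested genes). An unadjusted p under 0.05 by edgeR was found for 2 (18.2%, beside 21.8%). These were MAP3K14, the kinase of the NFKB2 branch (-0.47, adjusted p = 0.207), and TAB2, an adaptor of the kinase above IKK (0.40, adjusted p = 0.215), by edgeR, and TAB1 followed at 0.35 (adjusted p = 0.238). Of the 4 genes of the ubiquitin ligase that recognises IkB 0 were called by edgeR or limma-voom, and the scaffold CUL1 was called by DESeq2 (adjusted p = 0.0181). CUL1 stood at 94.4 and 82.8 CPM in N_12, against 50.1 and 63.3 CPM in DMSO (log2 fold change 0.64, adjusted p = 0.0896 by edgeR). It was the only 1 of the 4 with an unadjusted p under 0.05 by edgeR (25%, beside 21.8% of all tested genes). It was also the only 1 above 0 (25%, beside 51%). The recognition subunits BTRC and FBXW11 had log2 fold changes of -0.0097 and -0.06.

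Of 16 other IkB-family and negative regulator genes 0 were called by edgeR or limma-voom and 1 by DESeq2 (N4BP1, adjusted p = 0.0224). The median log2 fold change was -0.03, and 8 lay above 0 (50%, beside 51% of all tested genes). An unadjusted p under 0.05 by edgeR was found for 3 (18.8%, beside 21.8%). NFKBID, a nuclear IkB gene, stood at 8.12 and 8.29 CPM in N_12, against 5.51 and 4.32 CPM in DMSO (log2 fold change 0.74, adjusted p = 0.106 by edgeR). NFKBIZ, another nuclear IkB gene, stood at 18.3 and 19.2 CPM in N_12, against 29.8 and 21.7 CPM in DMSO (log2 fold change -0.46, adjusted p = 0.220 by edgeR). Both pairs of groups were separate, with estimates of opposite sign. Such separation was found in 31.2% of this list and in 54.7% of all tested genes. N4BP1, which restrains NF-kB signalling, differed by 0.55 on the log2 scale (SE 0.15, edgeR adjusted p = 0.103).

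Of 24 tested NF-kB target genes 1 was called, as lower, with a median log2 fold change of 0.16. Above 0 lay 16 (66.7%, beside 51% of all tested genes). An unadjusted p under 0.05 by edgeR was found for 7 (29.2%, beside 21.8% of all tested genes). Of these 7, GADD45B and MMP9 were lower in N_12 and the others higher. GADD45B (ENSG00000099860), a stress-response gene that NF-kB induces against cell death, stood at 22.0 and 23.1 CPM in N_12, against 52.4 and 44.6 CPM in DMSO. It fell 2.15-fold (log2 fold change -1.11, SE 0.16, adjusted p = 0.0207 by edgeR), with adjusted p-values of 0.131 without N_12 replicate 1 and 0.146 without N_12 replicate 2. MMP9, a matrix protease gene, had 9 and 8 counts in N_12 and 21 and 38 counts in DMSO (log2 fold change -2.25, SE 0.53, adjusted p = 0.0718 by edgeR). CXCL3, a neutrophil chemokine gene, had 103 and 127 counts in N_12 and 42 and 23 counts in DMSO (log2 fold change 1.36, SE 0.35, adjusted p = 0.0880 by edgeR); it has close paralogs, so its count is uncertain. The targets thus held estimates on both sides of 0, as the 10 genes did.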

How the data were processed

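The authors deposited raw read counts for each gene, as whole numbers keyed by human Ensembl identifiers. The submitters' processing notes name GRCm38 and mm10, mouse builds that do not match these identifiers. Which aligner and counter were used, and with which strandedness, is not given in the sources used here. Coordinates are printed only for RefSeq promoter windows. Symbols were found for 20148 of 20263 identifiers and for 147 of 148 listed genes; SOD2 was not analysed here.

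The fit used edgeR 4.0.16 in R 4.3.3, with TMM scaling (factors 0.98 to 1.02), the expression filter with groups given, and a robust quasi-likelihood test of N_12 over DMSO with Benjamini-Hochberg adjustment over 14105 genes, two-sided. DESeq2 1.42.0 and limma 3.58.1 served as alternatives. CPM use TMM-scaled totals. The procedure was tested on simulated data. Replicates of a group differed beyond counting error, with a chi-square of 59.6 (N_12) and 37.9 (DMSO) for each degree of freedom, so none was treated as a repeat deposit of another; this does not show separate cultures. The gene lists and members were chosen with earlier results of these data known. Named beside the 10 genes were list genes called and the 3 of each list with the smallest p.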

Additional observations from a re-analysis of the deposited data

How the results depend on the processing

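Counts of called genes depended on the tool: 317 of all genes and 5 of the 93 pathway genes as reported, 131 and 3 with limma-voom, 131 and 3 with non-robust dispersion estimates, and 1225 and 9 with DESeq2. Over all tested genes the called share was 2.25% as reported, 0.929% with limma-voom and 9.83% with DESeq2. The 9 of 93 pathway genes called by DESeq2 were thus near its share over all genes. Leaving out 1 library gave 0 to 451 genes, 0 to 4 pathway genes and 0 of the 10 members. Of the members 1, NFKB1, was called with library totals alone, with no filter, with a mean count of 50 or more, and with DESeq2. Of 120 member estimates under planned settings 8 changed sign, all of them uncalled. RELA turned with RLE factors (-0.0038), a mean count of 50 (-0.0028) and DESeq2 (-0.0039), and REL with library totals (0.0092). BTRC, a pathway gene that is not among the members or their 8 changes, turned with library totals (0.0369) and with no filter (0.0016). Over the fits that leave out 1 library, estimates ranged from -0.0555 to 0.0421 for RELA, -0.2489 to 0.1317 for REL, -0.3295 to 0.0847 for NFKBIE, -0.0035 to 0.2661 for BCL3, -0.143 to 0.1385 for BTRC, -0.1768 to 0.0273 for FBXW11 and -0.6097 to 0.8479 for CFLAR. The cause was not tested.

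The replicate number pairs libraries in the labels only by number, and the deviations of same-numbered libraries correlated at -0.114. With the replicate block 963 genes, 10 pathway genes and 1 member (NFKB1, adjusted p = 0.0348) were called. With the crossed replicate block, a pairing chosen after seeing the data, 28 genes, 0 pathway genes and 0 members were called. Depth limits the values of low genes such as MMP9, with 8 to 38 counts in each library.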

Other observations

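CFLAR, an inhibitor of caspase-8 and a listed NF-kB target, differed more between replicates than between groups. It stood at 19.0 and 47.5 CPM in N_12, against 39.7 and 18.5 CPM in DMSO (log2 fold change 0.19, SE 0.70, adjusted p = 0.907 by edgeR). N_12 replicate 2 and DMSO replicate 1 were the high libraries. CFLAR was chosen after its values were seen. TNFAIP8, a further target, stood at 22.3 and 9.64 CPM in N_12, against 15.5 and 13.8 CPM in DMSO, and CYLD, a deubiquitinase that restrains NF-kB, at 27.7 and 17.1 CPM in N_12, against 37.9 and 22.8 CPM in DMSO. Both were likewise chosen after their values were seen, and neither was called by edgeR (adjusted p = 0.899 and 0.517).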
